A study of Saccharomyces cerevisiae with 21 samples.

Results

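The 9 genes that make, process and export the mating pheromone a-factor were followed for 200 min after budding yeast (Saccharomyces cerevisiae) was released from pheromone arrest, in 1 library every 10 min. The 9 were taken by symbol from a table of 7126 genes and other loci: the precursor genes MFA1 and MFA2, the modifying enzyme genes RAM1, RAM2, STE24, RCE1, STE14 and AXL1, and the exporter gene STE6. All 9 were found and all passed the filter on low values. The 21 libraries came from 1 culture of the BF264-15D background, of mating type MATa, carrying bar1::hphMX4 and arg4. In it all 6 B-type cyclin genes were disrupted: the early S-phase pair as clb5::ARG4 and clb6::ADE1, the mitotic pair as clb1::URA3 with clb2::LEU2, and the remaining pair as clb3::TRP1 with clb4::HIS2. A CLB1 copy was driven by the galactose-inducible GAL1 promoter (PGAL1-CLB1::LEU2), in every library. Cells grown in galactose medium at 30 °C were held in G1 with alpha-factor, the pheromone of the opposite mating type, at 30 ng/ml for 160 min. They were then released into dextrose medium, so the pheromone was removed and the carbon source changed at the same moment, and the effects of these changes cannot be told apart.

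a-Factor is a short farnesylated peptide that MATa cells secrete to signal to MATalpha cells. Its precursors end in a CaaX box, a cysteine followed by 3 residues. The farnesyltransferase, made of the beta subunit Ram1 and the alpha subunit Ram2, attaches a lipid to that cysteine. The proteases Rce1 and Ste24 can remove the residues behind it, the methyltransferase Ste14 caps the exposed end, Ste24 and then Axl1 cut the other end, and the ABC transporter Ste6 carries the mature peptide out of the cell. MFA1, MFA2 and STE6 are a-specific genes, transcribed in MATa cells with the factor Mcm1 and repressed by alpha2 in other cell types. Pheromone acting through the factor Ste12 raises their transcription. The MFA2 mRNA is a classic model of a short-lived yeast transcript.

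The precursor reading frames are shown because both genes declined together. Whether their coding letters bear on the decline was not tested. The capitals mark the 4 codons of the CaaX box, and the sequences are from RefSeq build R64, the build the submitters named, whose reference strain is not the strain used here. MFA1 (YDR461W, chrIV:1385176-1385286, plus strand) and MFA2 (YNL145W, chrXIV:352414-352530, plus strand) are single coding exons of 111 and 117 bases.
MFA1: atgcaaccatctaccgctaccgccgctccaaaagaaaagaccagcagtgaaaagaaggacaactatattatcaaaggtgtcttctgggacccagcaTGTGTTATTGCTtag
MFA2: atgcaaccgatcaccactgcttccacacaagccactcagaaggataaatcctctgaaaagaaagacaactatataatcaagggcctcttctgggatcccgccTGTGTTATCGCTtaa
Aligned end to end, 87 of 120 columns held the same base (72.5% identity). The last 48 bases, which encode the mature peptide, the rest of the CaaX box and the stop codon, differed at 9 positions. Counted from the A of the MFA1 start codon, with the MFA1 base written before the position and the MFA2 base after it, these were T69A, A75G, T78C, G79C, C90T, A93C, A96C, T105C and G111A. The longest run the frames shared was 11 bases, at 58 to 68 of MFA1.

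Upstream windows, from 300 to 51 bases before the start codon, are shown for MFA1, MFA2 and STE6, the members with the steepest fall, and for AXL1, the next in that order. Capitals mark TGAAACA on either strand, the pheromone response element bound by Ste12, and GGAAATTTACA, the longest run of letters common to the MFA1, MFA2 and STE6 windows. The windows are chrIV:1384876-1385125 (plus strand) for MFA1, chrXIV:352114-352363 (plus strand) for MFA2, chrXI:46346-46595 (minus strand) for STE6 and chrXVI:781745-781994 (plus strand) for AXL1, each written in the direction of transcription.
MFA1: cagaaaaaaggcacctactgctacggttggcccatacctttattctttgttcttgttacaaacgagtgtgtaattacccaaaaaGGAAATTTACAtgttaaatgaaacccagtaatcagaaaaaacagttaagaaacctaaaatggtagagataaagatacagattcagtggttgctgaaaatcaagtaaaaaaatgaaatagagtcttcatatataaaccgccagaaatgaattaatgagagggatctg
MFA2: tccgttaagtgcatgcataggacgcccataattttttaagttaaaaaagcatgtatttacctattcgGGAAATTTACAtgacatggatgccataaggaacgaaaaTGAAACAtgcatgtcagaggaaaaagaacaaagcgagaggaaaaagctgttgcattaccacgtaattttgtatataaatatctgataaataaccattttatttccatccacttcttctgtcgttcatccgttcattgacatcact
STE6: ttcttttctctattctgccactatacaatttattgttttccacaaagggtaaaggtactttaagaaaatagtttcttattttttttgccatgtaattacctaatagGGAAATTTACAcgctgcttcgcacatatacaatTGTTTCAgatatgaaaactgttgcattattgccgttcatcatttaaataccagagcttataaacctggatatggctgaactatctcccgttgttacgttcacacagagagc
AXL1: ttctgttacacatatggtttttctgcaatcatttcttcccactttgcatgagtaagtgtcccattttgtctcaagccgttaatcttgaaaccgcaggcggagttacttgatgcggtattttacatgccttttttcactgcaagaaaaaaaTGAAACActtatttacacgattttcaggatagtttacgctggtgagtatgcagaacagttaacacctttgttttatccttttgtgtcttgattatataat
The 11-letter run was picked after these windows were read. On both strands it stood in 7 of 6020 such windows of protein-coding genes (0.116%), those of MFA1, MFA2, STE6, STE2, ASG7, PXP1 and RDT1. STE2, the receptor for alpha-factor, and ASG7 are a-specific genes too. The windows of AGA2 and BAR1, also a-specific genes, were not among the 7. TGAAACA stood in 6.11% of the windows. Among the 9 members it was found once each in MFA2, STE6, AXL1, RAM1 and STE14, and not in MFA1, RAM2, STE24 or RCE1. Windows with the core of an Mcm1 site (CC and GG with any 6 bases between them, on both strands) made up 26.1% of all and included those of MFA1, MFA2, STE6, AXL1 and RAM1. CATGTNA on either strand, a form of the alpha2 site, stood in 9.53% and in the windows of MFA1, MFA2, STE6, AXL1 and STE14. The matches overlap: in MFA1, MFA2 and STE6 the end of an Mcm1 core falls on the start of the 11-letter run, and in MFA1 and MFA2 the end of that run falls on a CATGTNA match. No run of letters in these windows was tested for function here.

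Values are FPKM, fragments per kilobase of transcript scaled by library size, after subtraction of the 1 that the authors added to each. Their sum ran from 1212671 (180 min) to 1911174 (0 min) per library, 680 to 822 loci were at 0, and none of the 210 library pairs were identical. Of the 7 genes that mark MATa cells, among them MFA1, MFA2 and STE6, 6 exceeded 10 FPKM, and BAR1, disrupted in this strain, stayed between 1.34 and 3.18. Their sum lay between 2685 and 89588 FPKM, against 49.5 to 86.0 for the 4 genes that mark MATalpha cells. Most of the latter was SAG1 (41.5 to 72.1), the defining pheromone gene MF(ALPHA)1 being between 0.154 and 1.14. The 4 meiotic genes summed to 35.2 to 67.5 FPKM. IME1 reached 33.3, SPO11 29.1 and IME2 25.8, while NDT80, a meiotic transcription factor, stayed at no more than 4.57. Of the MATalpha genes 3 of 4 reached 10 FPKM, with MF(ALPHA)2 up to 20.6 and STE3 up to 11.9. Of the meiotic genes 3 of 4 did so.

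Both precursor mRNAs were highest in the arrested cells and had lost most of that level within 20 min. The first 5 libraries, from 0 to 40 min, held 34816, 23506, 8089, 5971 and 4459 FPKM of MFA1. They held 41687, 24632, 11107, 10227 and 6210.2 FPKM of MFA2. Each step of both series was downward, and together the genes took 4.003% of the FPKM sum at the start and 0.618% at 40 min. At 20 min 23.2% of the 0 min level of MFA1 and 26.6% of that of MFA2 were left. In RNA of a whole culture, fewer cells making a transcript and less of it per cell cannot be told apart. Interpolated between libraries, MFA1 passed 50% of its starting level at 12.8 min and MFA2 at 12.1 min, and neither went back above that level. The 25% level was passed at 19.3 min by MFA1 and 27.7 min by MFA2, and the 12.5% level at 75.8 and 76.5 min, with 1 and 2 later libraries of each back above these levels. All these times are set against the single 0 min library.

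The later course of the precursor genes was a slower and uneven decline. From 50 to 70 min MFA1 stood at 7567, 6056 and 9424 FPKM, above its 40 min value, and MFA2 at 10430.3, 8093 and 10217. At 80 min they were at 2460.3 and 3611. Between 90 and 200 min both genes had their lowest value at 180 min (MFA1 639.5 FPKM, MFA2 1329) and their highest at 120 min (MFA1 6300.0 FPKM, MFA2 6595). The 190 min library, at 5001 and 5294, stood high as well. At 200 min MFA1 was at 1752 FPKM, 5.03% of its starting level, and MFA2 at 1950.3, 4.68%.

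Lines joined at 40 min were fitted to log2(FPKM + 1) of all loci with limma, and a gene counted as changed at a Benjamini-Hochberg adjusted p under 0.05 and a fitted change of at least 1 on the log2 scale. MFA1 fell by 2.54 ± 0.67 (SE) from 0 to 40 min (adjusted p = 0.00352) and MFA2 fell by 2.33 ± 0.53 (adjusted p = 0.00113). From 40 to 200 min MFA1 fell by 1.75 ± 0.54 (adjusted p = 0.00934) and MFA2 fell by 1.82 ± 0.43 (adjusted p = 0.00125). Time points of 1 culture are not independent, so these p-values are too small. Without the 0 min library the early slopes kept most of their size, at -0.56 (MFA1) and -0.50 (MFA2) per 10 min in place of -0.64 and -0.58, but neither passed the threshold (adjusted p = 0.0816 and 0.0505). Without both the 0 and 10 min libraries they were smaller, at -0.24 and -0.32 per 10 min (adjusted p = 0.671 and 0.456). With the lines joined at 60 min the later fall of MFA1 did not pass (adjusted p = 0.0521).

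The uneven part of the course was common to both precursor genes. Departures from the joined lines had the same sign for MFA1 and MFA2 in 20 of 21 libraries, and those of MFA1 were largest at 190 min (1.59, with 1.29 for MFA2, log2), 180 min (-1.48 and -0.81), 70 min (1.196 and 0.87) and 120 min (1.16 and 0.81). At 110 min MFA2 departed by -0.89 and MFA1 by -0.58. Other short loci deviated in the same libraries. The median of 331 other loci of at most 300 bp, each relative to its own mean, took the values 0.34, -0.28, 0.21, 0.18 and -0.33 in these libraries, in the same order. The first and last of these were its extremes over the 21 libraries. Its sign was that of MFA1 in 16 libraries and that of MFA2 in 17. Its part in the course of MFA1 and MFA2 was not tested. With short loci centred on that median, a step added after the data were seen, the early slopes were -0.63 and -0.58 per 10 min (limma, adjusted p = 0.000644 and 6.59e-05).

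**Figure D1:**
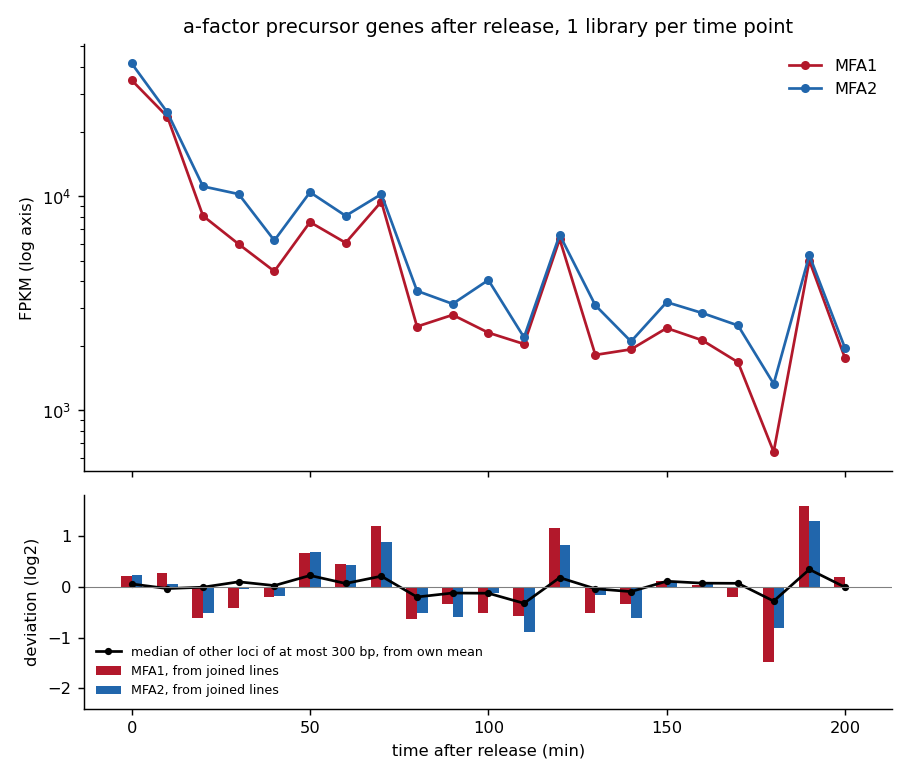
Upper panel, FPKM of MFA1 and MFA2 (log axis) against minutes after release, 1 library per point. Lower panel, departure of each gene from its joined lines (bars, log2) and the median deviation of other loci of at most 300 bp (black line). MFA1 goes from 34816 to 1752 FPKM and MFA2 from 41687 to 1950.3, with shared high points at 70, 120 and 190 min and a shared low point at 180 min.

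MFA2 was the higher of the pair in all 21 libraries. The log2 ratio of MFA1 to MFA2 had a median of -0.42 and lay between -1.05 at 180 min and -0.07 at 120 min. The level of MFA1 was 83.5% of that of MFA2 in the first library, 58.4% after 30 min and 89.8% in the last. The early slope of MFA1 minus that of MFA2 was -0.05 log2 per 10 min, with a 95% interval from -0.20 to 0.09, so their speeds were not distinguished. The frames are the shortest of the members, and how the authors' software corrected for length is not stated, so the level of either gene against a longer one is uncertain.

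STE6, the exporter gene (YKL209C, chrXI:42423-46295), was still near its starting level at 10 min and fell after that. The 7 libraries from 0 to 60 min held 115, 109, 66.7, 36.7, 28.3, 22.5 and 19.6 FPKM of STE6. From 70 to 200 min it stayed between 14.9 and 19.3 FPKM. The 10 min library held 94.5% of the starting level of STE6, against 67.5% for MFA1 and 59.1% for MFA2, and the 50% level was passed at 22.5 min and the 25% level at 39.4 min. STE6 fell by 2.65 ± 0.17 (SE, log2) from 0 to 40 min (limma, adjusted p = 1.27e-10). Its fitted change from 40 to 200 min was -0.55 ± 0.14, under the 2-fold minimum, and after libraries were rescaled to the same FPKM sum its later slope was -0.01 per 10 min in place of -0.03 (limma, adjusted p = 0.307). The early slope of STE6 minus that of MFA1 was -0.03 log2 per 10 min, with a 95% interval from -0.43 to 0.38.

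AXL1 (YPR122W, chrXVI:782045-785671), the gene of the protease that makes the last cut, had a smaller and more gradual decline. From 0 to 40 min its libraries held 75.5, 48.7, 47.99, 43.5 and 38.3 FPKM. It held 33.0 FPKM after 100 min and 22.7 FPKM after 200 min, 30.1% of the start. The largest single step was the initial one, and the 50% level was passed at 41.8 min and not regained. Its fitted changes were -0.83 ± 0.11 from 0 to 40 min and -0.66 ± 0.09 from 40 to 200 min (limma, adjusted p = 3.93e-06 and 4.30e-06), each below the 2-fold minimum. After libraries were rescaled to the same FPKM sum the later slope of AXL1 was -0.02 per 10 min in place of -0.04 (adjusted p = 0.0612). MFA2 was steeper than AXL1 by 0.38 log2 per 10 min over the early interval (difference -0.38, 95% interval from -0.69 to -0.06).

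**Figure D2:**
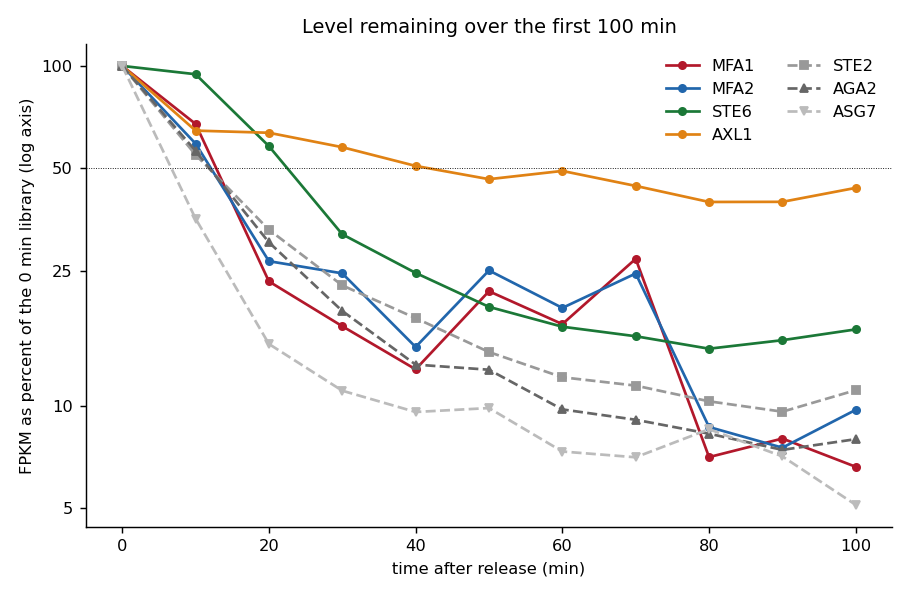
FPKM as a percent of the 0 min library (log axis) over the first 100 min for MFA1, MFA2, STE6 and AXL1 (solid lines) and the a-specific genes STE2, AGA2 and ASG7 (dashed lines), 1 library per point. At 10 min STE6 is at 94.5% while STE2 is at 54.8% and ASG7 at 35.6%, and AXL1 is still at 50.8% at 40 min.

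RAM2 (YKL019W, chrXI:402568-403518), the gene of the alpha subunit of the farnesyltransferase, dipped and came back. Its first 5 libraries held 104, 73.3, 38.1, 35.4 and 42.2 FPKM. Later values ran from 47.1 FPKM (100 min) to 87.9 (120 min), with 80.3 FPKM at 80 min and a final 68.0. The 50% level was passed at 15.3 min, and 12 later libraries were back above it. The high values at 80 and 120 min were single libraries, and loci of at most 300 bp had a median deviation of -0.20 in the former and 0.18 in the latter. RAM2, with 951 coding bases, is not among those short loci. Of the genes of farnesyl diphosphate supply, ERG10 was higher at 80 and 120 min (829 and 751 FPKM) than at 100 min (494), as were MVD1 and ERG20. IDI1 was lower (325 and 291 against 391), as was ERG13 by a small margin. HMG1, HMG2, ERG12, ERG8 and BTS1 were higher at 80 min and lower at 120 min. The early slope of RAM2 did not pass (fitted change -0.70 ± 0.30, limma, adjusted p = 0.0609). Without the 0 and 10 min libraries its sign turned, to 0.29 per 10 min from -0.17 (adjusted p = 0.0977).

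RAM1 (YDL090C, chrIV:295034-296329), the other farnesyltransferase subunit gene, never went below 50% of its start. Its lowest value was 16.1 FPKM (60 min), its median 21.3 and its highest 26.4 (200 min), from a start of 23.6. Its fitted changes were -0.29 ± 0.14 before 40 min and 0.30 ± 0.11 after it (limma, adjusted p = 0.0904 and 0.0299). At 20 min RAM1 was at 99.2% of its start while RAM2 was at 36.6%.

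Neither of the CaaX protease genes passed the test over the first 40 min. STE24 (YJR117W, chrX:642007-643368), which acts at both ends of the precursor, had the highest level of the processing genes by FPKM. It began at 284 FPKM, had its lowest value of 272 in the 10 min library and its highest of 399 in the 100 min library, and ended at 352. Its fitted early change was 0.24 ± 0.12 (limma, adjusted p = 0.116). RCE1 (YMR274C, chrXIII:814364-815311), the gene of the other CaaX protease, held between 19.7 and 22.5 FPKM up to 40 min and then stood lower, with 14.7 after 80 min and 10.5 in the last library. Its fitted changes were -0.28 ± 0.17 before 40 min (limma, adjusted p = 0.191) and -0.84 ± 0.14 after it (adjusted p = 3.38e-05, below the 2-fold minimum). The 50% level was reached only at 178 min. The early slope of RCE1 minus that of STE24 was -0.13 log2 per 10 min (95% interval from -0.26 to -0.0034), and with the lines joined at 30 min the interval included 0.

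STE14 (YDR410C, chrIV:1292372-1293091), the methyltransferase gene, was highest in the arrested cells. Its first 5 libraries held 131, 125.4, 117, 101 and 95.3 FPKM, each below the one before, and the later ones between 80.3 and 95.6. The fitted early change was -0.55 ± 0.07 (limma, adjusted p = 2.33e-06), below the 2-fold minimum, and 61.8% of the start was left at 200 min.

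**Figure D3:**
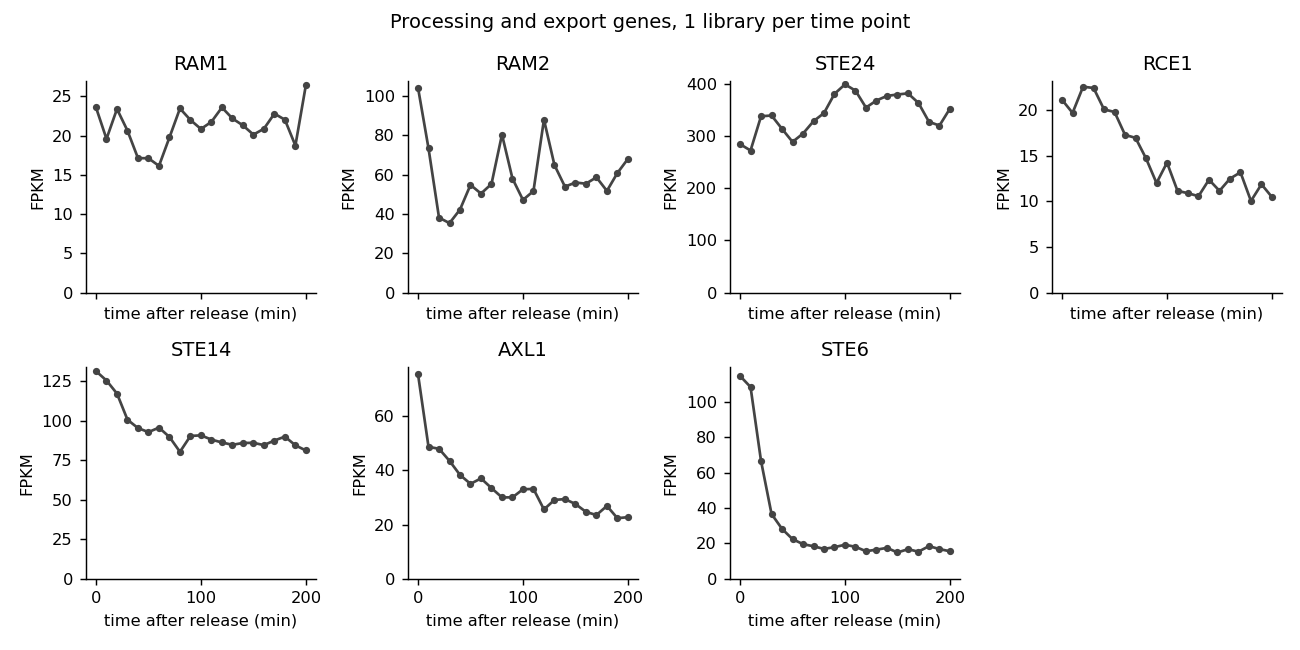
FPKM (linear axes from 0) against minutes after release for the 6 processing genes and the exporter gene STE6, 1 library per point. STE6 and AXL1 decline to 15.6 and 22.7 FPKM, RAM2 dips to 35.4 at 30 min, and RAM1 and STE24 end at 26.4 and 352 FPKM.

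Counted over the 9 genes, 3 (MFA1, MFA2 and STE6) fell from 0 to 40 min and none rose, where 12.6% of 6198 loci tested fell and 6.05% rose. The median fitted early change was -0.70 over the 9 and -0.04 over all loci. Without the 0 min library, and likewise without the 0 and 10 min libraries, 1 of the 9, STE6, fell. The count over all loci moved as well. It was 781 in the main fit, 562 to 883 with any 1 library left out and 558 to 976 under the other alternatives. From 40 to 200 min 2 of the 9 (MFA1 and MFA2) fell and none rose, against 4.84% and 11% of all loci, with medians of -0.55 and 0.06. A spline over all 21 libraries called 5 of 9 (MFA1, MFA2, STE6, AXL1 and RAM2) with a fitted range of at least 1, against 44.8% of all loci. RAM2 did not pass the spline test without the 0 min library (adjusted p = 0.0887), nor with 4 degrees of freedom in the spline, nor without both the 0 and 10 min libraries (fitted range 0.92). Without those libraries MFA1 did not pass either (fitted range 2.23 in place of 4.73, adjusted p = 0.060). RCE1, with a fitted range of 0.99, passed the minimum of 1 when any of 5 single libraries was left out and under 3 other settings.

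Ordered by early slope, the members ran STE6, MFA1, MFA2, AXL1, RAM2, STE14, RAM1, RCE1 and STE24. For MFA2 against AXL1 and RCE1 against STE24, of the 8 neighbouring pairs, the 95% interval of the slope difference left out 0, and for the other 6 it included 0. STE6 stood at percentile 1.57 of all loci from the steepest early fall, MFA1 at 1.97, MFA2 at 2.53 and AXL1 at 17.5, these ranks being a description.

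**Figure D4:**
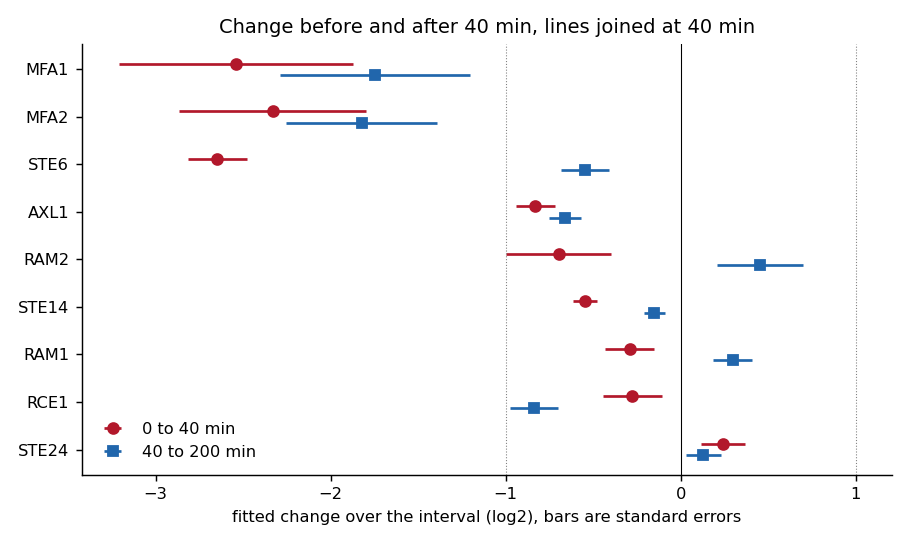
Fitted change in log2(FPKM + 1) of each member from 0 to 40 min (circles) and from 40 to 200 min (squares), with standard errors over 21 libraries and dotted lines at a 2-fold change. MFA1, MFA2 and STE6 lie beyond -1 in the early interval, and MFA1 and MFA2 in the later one.

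Curves that decay to a plateau gave a second description of speed. STE6 had a half-life of 12.4 ± 0.955 min (SE) toward a plateau of 16.5 FPKM, and 9.82 min without the 0 min library. MFA1 had 21.4 ± 6.77 min toward 1924 FPKM and MFA2 22.3 ± 5.57 min toward 2500.1 FPKM, with wide 95% intervals of 10.99 to 41.6 and 13.2 to 37.7 min. Over the libraries up to 100 min these were 11.3 and 17.3 min, and the STE6 half-life was 12.4 min. AXL1 had 33.6 ± 6.46 min toward 24.4 FPKM, but 61.0 min without the 0 min library, 15.8 min over the libraries up to 100 min and 17.9 min after libraries were rescaled to the same FPKM sum. RCE1 had 56.7 ± 20.1 min toward 9.26 FPKM. No curve met the set limits for RAM1, RAM2, STE14 or STE24. These half-lives describe net loss of mRNA relative to the rest, since synthesis was not blocked. The fitted curves started at 22961 FPKM for MFA1 and 28934 for MFA2, below their 0 min values of 34816 and 41687. That of STE6 started at 141 FPKM, above its 0 min value of 115. By time to 50%, STE6 at 22.5 min came after MFA2 at 12.1 and MFA1 at 12.8 min. That was the reverse of the order of the curves over all 21 libraries. The curve order of STE6 and MFA1 was itself uncertain. The 95% interval of MFA1 included the STE6 half-life, and over the libraries up to 100 min MFA1 came before STE6.

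Other a-specific genes gave a yardstick for the speed of the members. Of STE2, BAR1, AGA2 and ASG7, 3 fell from 0 to 40 min, against 12.6% of all loci, with a median fitted change of -2.93 for the 4. The exception was BAR1 (-0.20), which is disrupted in this strain and so gives no yardstick. AGA2, the binding subunit of the a-agglutinin, fell by 3.19 ± 0.17, ASG7 fell by 3.08 ± 0.26 and STE2 fell by 2.78 ± 0.15 (limma, adjusted p = 1.19e-11, 6.39e-09 and 1.19e-11). Their curves had half-lives of 12.1, 9.70 and 13.1 min, and each passed the 50% level between 6.70 and 11.9 min, before MFA2, MFA1 and STE6. Among the 768 loci that fell early and reached 50%, the median time was 13.5 min, with quartiles at 9.11 and 18.6 min, so MFA1 and MFA2 lay near the middle and 81.8% of these loci reached 50% before STE6. That time includes the first 10 min, in which STE6 kept 94.5% of its level. By early slope, with lines joined at 40 min, STE6 ranked 97 of 6198 loci, ahead of MFA1 and MFA2. Its curve half-life of 12.4 min lay within the range of AGA2, ASG7 and STE2.

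Genes induced by pheromone mostly declined over the same 40 min. Of 18 such genes 17 fell, against 12.6% of all loci, with a median fitted change of -2.18. The exception was STE12 (-0.82), below the 2-fold minimum (limma, adjusted p = 1.32e-06). AGA1, the anchor subunit of the agglutinin, fell by 3.20 ± 0.21, FIG2 fell by 3.14 ± 0.21, FIG1 fell by 2.99 ± 0.26 and PRM1 fell by 2.70 ± 0.20 (limma, adjusted p = 1.61e-10, 3.69e-10, 1.30e-08 and 8.29e-10). Their median time to 50% was 8.28 min, with a range from 5.65 to 30.0 min. All 4 galactose genes, whose inducer was withdrawn at release, passed in the same direction, with fitted changes of -2.89 for GAL1, -2.55 for GAL2, -2.43 for GAL7 and -2.31 for GAL10 (SE 0.18 to 0.21), passing 50% between 5.94 and 7.96 min.

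No gene of the lipid supply or of other prenyltransferases passed the early test. None of the 10 genes from acetyl-CoA to farnesyl diphosphate and its geranylgeranyl branch passed in the early interval (median -0.09). Of all loci 12.6% fell and 6.05% rose in that interval, and 4.84% fell in the later one. The largest fitted values were -0.97 ± 0.20 for MVD1, the mevalonate diphosphate decarboxylase gene, and 0.62 ± 0.14 for the phosphomevalonate kinase gene ERG8. Both were below the 2-fold minimum (limma, adjusted p = 0.000426 and 0.00133). Only HMG1, a hydroxymethylglutaryl-CoA reductase gene, passed in the later interval of that list, with a fall of 1.44 ± 0.13 (limma, adjusted p = 2.27e-08). None of CDC43, BET2, BET4 and MRS6, which serve other prenyltransferases, passed (median 0.20), with the largest values 0.36 for BET4 and 0.23 for MRS6. Of 6 genes of other farnesylated proteins, RAS2, a Ras GTPase gene, fell by 1.16 ± 0.24 and YDJ1, a chaperone gene, rose by 1.10 ± 0.17 (limma, adjusted p = 0.000518 and 1.70e-05), with a median of 0.27. The other Ras gene, RAS1, had a fitted early change of 0.85 ± 0.13, below the 2-fold minimum (limma, adjusted p = 1.79e-05). From 40 to 200 min RAS1 fell by 1.69 ± 0.11 (limma, adjusted p = 2.46e-10).

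No protease gene of the lists passed in the early interval, where 12.6% of all loci fell and 6.05% rose. STE23, a protease related to Axl1 that can also cut the a-factor precursor, had a fitted early change of -0.05 ± 0.16. Of the alpha-factor processing genes KEX1, KEX2 and STE13 none passed (median -0.18). The largest values were -0.80 ± 0.14 for STE13 and 0.69 ± 0.13 for KEX2 (limma, adjusted p = 7.49e-05 and 0.000205). Both were below the 2-fold minimum. Of the alpha-specific genes, 3 of 4 passed the filter on low values and MF(ALPHA)2 fell, from 20.6 to 1.17 FPKM (median of the 3, -0.45).

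Members differed in which loci had the most similar course, by Pearson's r of log2(FPKM + 1) over the 21 libraries among 5383 loci with a mean of at least 10 FPKM. The points share 1 culture and a time order, so r is a description. MFA1 and MFA2 were each other's nearest (r = 0.979), followed by RPL14B (0.915) and NCB2 (0.914) for MFA1 and by YJL127C-B (0.939) and NCB2 (0.926) for MFA2. STE6 was nearest to STE2 (0.980), CTS1 (0.978) and AGA2 (0.975), and STE14 to STE6 (0.974), GYP8 (0.963) and STE2 (0.961). AXL1 was nearest to CIK1 (0.983), PRM2 (0.978) and FUS2 (0.977). RAM2 was nearest to RIM101, YLR179C and STP22 (0.970 to 0.973) and RCE1 to RKI1, SPT15 and TSR3 (0.956 to 0.958). RAM1 (PRR1, ADH4 and SEC31, 0.725 to 0.812) and STE24 (PER33, GCN1 and COP1, 0.845 to 0.860) had lower values. RAM1 and RAM2, subunits of 1 enzyme, had r = 0.393 with each other.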

How the data were processed

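mRNA of 21 libraries, 1 per time point with no replicates, was sequenced with a stranded kit. Per the submitters' processing notes, STAR, Cufflinks, Cuffnorm and build R64 were used; versions and strand setting were not stated. By their range and these tools, the values the authors deposited were taken to be FPKM normalized across libraries plus 1, since none is under 1. That 1 was subtracted. No read totals were at hand, so depth is unknown and no counting interval can be had. A table of 50 columns from another series was not used. Names were matched to RefSeq R64 for 6208 of 7126 loci, and none of the 9 members overlaps another annotated gene.

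Values were analysed as log2(FPKM + 1), in which fold changes of low genes are understated, with limma 3.58.1 in R 4.3.3 (moderated variances with a mean-variance trend) over 6198 loci with a mean FPKM of at least 1. Lines joined at 40 min and a natural spline (6 degrees of freedom) were fitted to all 21 libraries, with Benjamini-Hochberg adjustment over all loci. The fits were tested on simulated data with independent noise, so that test says nothing of dependence between time points of 1 culture. Times to 50%, plateau curves (limits: start at least 2-fold above the plateau, half-life up to 100 min) and slope differences with 95% intervals were computed in Python 3.11.15 with scipy 1.17.1. The intervals take the libraries of 1 culture as independent, so they are too narrow. Named genes were all members, up to 4 genes of each list with the largest early change among those called, or up to 2 as values, and the 3 loci most like each member. HMG1 and RAS1 were named after their values were seen, each as the single later call of its list. Members and lists were chosen with earlier results of these data known. Alternatives varied the joining time, pseudocount, filter, scaling, spline, variance trend and libraries.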

Additional observations from a re-analysis of the deposited data

How the results depend on the processing

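No paired analysis was possible because there is 1 library per time point. Each of the 21 libraries was left out in turn. The members that fell early then numbered 1 to 3, the lowest without the 0 min library, and were 1 without both the 0 and 10 min libraries. Loci that fell early numbered 562 to 883 with 1 library left out, in place of 781, and 558 to 976 under the other alternatives. Without both the 0 and 10 min libraries, 1734 loci passed the spline test in place of 2775. With lines joined at 60 min, 1 member and 181 loci fell later, in place of 2 and 300. Rescaling libraries to the same FPKM sum shifted the median later change of all loci by 0.33 (log2). It gave 101 later falls and 1186 later rises in place of 300 and 684, turned the later slope of STE14 from -0.01 to 0.01 per 10 min, and moved those of AXL1, STE6 and RCE1 to -0.02, -0.01 and -0.03 from -0.04, -0.03 and -0.05. A pseudocount of 5 gave 434 later rises. The slope difference of STE14 and RAM1 was -0.0593 per 10 min, with an interval that left out 0, for lines joined at 60 min, and that of RCE1 and STE24 was -0.14 with an interval including 0 for lines joined at 30 min. The AXL1 time to 50% was 47.8 min after rescaling by median ratio. Its curve half-life was 15.8 min up to 100 min, 17.9 min after rescaling to the same sum, and 29.7 to 61.0 min with single libraries left out. That of STE6 was 9.82 to 12.9 min with single libraries left out. The causes were not tested. No curve for RCE1 met the limits under 2 of its alternatives. The members that passed the spline test numbered 4 to 6 over all alternatives, and the loci 1734 to 3128. MFA1 (adjusted p = 0.060) and RAM2 did not pass it without the 0 and 10 min libraries. STE6 fell early and AXL1 passed the spline test under every alternative run. Depth is unknown, so what it limits could not be given.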
